A study of Mus musculus with 8 samples.

Results

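Chemokine ligands are small secreted proteins, with a few anchored in the membrane, that attract leukocytes through G-protein-coupled receptors. The genes were taken from the probe sets that listed exactly 1 gene symbol, with 1 probe set per gene (the highest mean over all arrays), as every symbol that starts with Ccl or Cxcl and a number, plus Xcl1, Cx3cl1, Pf4 and Ppbp. This gave 36 of 19937 named genes. The samples were 8 tumors grown from 4T1, a BALB/c mammary carcinoma cell line, in the mammary gland of BALB/c mice and taken after 18 days. For 4 of them the fourth mammary gland, the later tumor bed, had been given 1 local X-ray dose of 20 Gy ahead of implantation (preirradiated), while the bed of the other 4 had received no radiation (nonirradiated). Each tumor had 1 Affymetrix Mouse Gene 1.0 ST array, and the question was how the tumor bed's irradiation bears on the transcripts of the tumor. Nothing in the labels ties each tumor to a mouse of its own, so p-values measure the spread between these tumors, which may be technical.

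The family is named after the spacing of the conserved cysteines near the start of the mature protein, which are adjacent in CC chemokines, separated by a single residue in CXC chemokines, and arranged differently in Xcl1 and Cx3cl1. Inflammatory members are made on demand by macrophages, fibroblasts, endothelium and tumor cells after interferon or NF-kB signals, while homeostatic members direct lymphocytes through lymphoid organs. In mammary tumors, CCR2 ligands are known for drawing monocytes, CXCR2 ligands for drawing neutrophils, and CXCR3 ligands for drawing activated T and NK cells. A receptor often binds several ligands, so the genes are described here by receptor. Because whole tumor RNA was measured, fewer cells of a type and less RNA per cell cannot be told apart.

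Values are log2 RMA signals, the deposited scale, in which a difference of 1 is a doubling of signal. Each is one probe set's signal, so levels are compared between tumors and not between genes. The arrays were alike, with correlations between arrays from 0.991 to 0.996. The 6 epithelial markers, Epcam, Krt8, Krt18, Cdh1, Krt14 and Krt5, were all above background on their means. Their list means were 9.19 to 9.79 in nonirradiated and 9.46 to 9.79 in preirradiated tumors. Krt5 was high only in nonirradiated tumor 4 (7.37) and preirradiated tumor 3 (6.93), against 5.42 to 5.66 in the others. Those tumors also had the highest means of skin epidermis markers (6.54 and 6.93), and the part of skin in Krt5 was not tested. Skeletal muscle genes stood apart in preirradiated tumors 1 and 3, whose means over 10 markers were 9.46 and 10.77, against 6.21 to 6.53 in the other 6 tumors. Background was set at 5.47, the 95th percentile of the mean signal of 1035 olfactory receptor probe sets. By this measure 30 of the 36 chemokine genes were above background. Ccl4, Ccl20, Ccl26, Ccl28, Cxcl13 and Cxcl15 were not, and no direction is drawn for them.

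Promoter sequences are shown for genes on which the results below turn and for which RefSeq (GRCm38.p6) gave one, each with 250 bases before and 50 after the transcription start, 5′ to 3′ on the strand of the gene. Such a sequence was at hand for 25 of the 36 genes. Capitals mark matches, on either strand, to the interferon-stimulated response element, searched as GAAA, any 2 bases, GAAA, or to an NF-kB site, searched as GGG, any 2 bases, TTTCC. No promoter of the family held matches to both patterns, and no matches overlapped. Looser forms of either site were not searched, so a promoter without a match may still hold a site. Cxcl1, Cxcl2 and Cxcl3 are shown because they are neighbouring genes of CXCR2 ligands, and because the pairs Cxcl1 with Cxcl2 and Cxcl2 with Cxcl3 were among those whose covariation was tested.
Cxcl1 promoter (chr5:90890995-90891294, plus strand): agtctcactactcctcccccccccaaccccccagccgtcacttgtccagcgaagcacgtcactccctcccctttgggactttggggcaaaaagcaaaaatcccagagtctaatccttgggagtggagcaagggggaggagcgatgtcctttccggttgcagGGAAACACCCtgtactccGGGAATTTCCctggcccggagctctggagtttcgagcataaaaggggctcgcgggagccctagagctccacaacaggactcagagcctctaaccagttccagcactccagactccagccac
Cxcl2 promoter (chr5:90903649-90903948, plus strand): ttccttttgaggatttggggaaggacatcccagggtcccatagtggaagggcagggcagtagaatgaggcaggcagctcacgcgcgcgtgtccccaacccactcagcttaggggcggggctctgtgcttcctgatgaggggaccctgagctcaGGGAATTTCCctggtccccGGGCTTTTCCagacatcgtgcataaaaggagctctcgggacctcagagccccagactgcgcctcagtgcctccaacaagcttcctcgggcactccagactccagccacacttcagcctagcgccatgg
Cxcl3 promoter (chr5:90785851-90786150, plus strand): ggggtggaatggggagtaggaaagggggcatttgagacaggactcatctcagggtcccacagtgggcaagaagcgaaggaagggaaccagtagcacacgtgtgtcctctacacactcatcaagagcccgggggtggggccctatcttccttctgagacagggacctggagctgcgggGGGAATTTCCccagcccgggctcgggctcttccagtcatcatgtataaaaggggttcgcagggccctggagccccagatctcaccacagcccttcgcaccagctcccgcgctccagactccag
Cxcl10 and Cxcl9 are shown as interferon-inducible CXCR3 ligands, whose covariation was also tested.
Cxcl10 promoter (chr5:92348840-92349139, minus strand): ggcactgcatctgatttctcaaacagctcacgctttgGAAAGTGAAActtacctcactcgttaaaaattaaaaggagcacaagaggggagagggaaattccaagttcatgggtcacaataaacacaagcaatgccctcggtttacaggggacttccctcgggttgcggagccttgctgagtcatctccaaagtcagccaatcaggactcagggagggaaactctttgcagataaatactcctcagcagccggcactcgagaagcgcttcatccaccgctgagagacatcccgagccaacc
Cxcl9 promoter (chr5:92328030-92328329, minus strand): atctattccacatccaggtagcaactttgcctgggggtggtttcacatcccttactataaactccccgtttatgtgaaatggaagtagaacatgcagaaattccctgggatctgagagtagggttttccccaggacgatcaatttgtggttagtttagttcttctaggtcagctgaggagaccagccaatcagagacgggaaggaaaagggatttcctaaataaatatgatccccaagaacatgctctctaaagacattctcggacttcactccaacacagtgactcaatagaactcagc
Cxcl14, Ccl9 and Ccl12 are shown because they had the smallest unadjusted p for a difference between the groups among genes with a sequence at hand.
Cxcl14 promoter (chr13:56296502-56296801, minus strand): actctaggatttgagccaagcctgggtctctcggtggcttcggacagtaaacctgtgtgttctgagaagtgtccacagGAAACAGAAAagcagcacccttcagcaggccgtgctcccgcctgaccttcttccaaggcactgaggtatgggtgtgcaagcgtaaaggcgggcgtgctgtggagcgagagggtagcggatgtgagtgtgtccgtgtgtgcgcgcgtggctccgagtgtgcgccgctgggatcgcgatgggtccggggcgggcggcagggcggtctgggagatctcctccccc
Ccl9 promoter (chr11:83578587-83578886, minus strand): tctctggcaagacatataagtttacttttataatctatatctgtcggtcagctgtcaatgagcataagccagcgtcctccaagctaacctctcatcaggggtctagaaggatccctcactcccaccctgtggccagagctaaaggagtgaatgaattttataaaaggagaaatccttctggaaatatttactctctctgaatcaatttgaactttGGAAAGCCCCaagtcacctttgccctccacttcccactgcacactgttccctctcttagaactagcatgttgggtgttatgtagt
Ccl12 promoter (chr11:82101595-82101894, plus strand): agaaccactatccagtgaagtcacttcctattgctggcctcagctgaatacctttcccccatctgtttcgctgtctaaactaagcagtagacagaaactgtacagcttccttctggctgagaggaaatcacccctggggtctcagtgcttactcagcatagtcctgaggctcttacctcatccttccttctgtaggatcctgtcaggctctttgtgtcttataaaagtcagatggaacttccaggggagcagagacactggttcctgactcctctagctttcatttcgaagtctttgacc

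The same 10 letters, GGGAATTTCC, began 71 bases before the start of Cxcl1, 97 bases before that of Cxcl2 and 73 bases before that of Cxcl3. Cxcl1 held a further match, GGAAACACCC, 89 bases before its start, and Cxcl2 a further one, GGGCTTTTCC, 78 bases before. Ccl9 held GGAAAGCCCC 35 bases before its start, and Ccl20, not shown, held GGAAAACCCC 80 bases before. In all, 5 of 25 chemokine promoters held an NF-kB match, against 438 of 27025 mouse promoters of the same length (1.62%). The response element was matched by GAAAGTGAAA in Cxcl10, 213 bases before the start, by the same letters in Ccl19, and by GAAACAGAAA in Cxcl14, 172 bases before. These were 3 of 25 chemokine promoters, against 943 of 27025 (3.49%). Cxcl9 and Ccl12 held no match to either pattern in this window. A match describes letters only and shows no binding.

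In preirradiated tumors Ccl24, Ccl12 and Ccl5 had a lower signal by the study's uncorrected filter, and no chemokine gene passed after correction for multiple testing. Of the 36 genes, 26 were lower and 10 higher on average, with a median log2 difference of -0.058. Of the 30 above background, 22 were lower and 8 higher, with a median of -0.075. These medians compare with -0.0038 over all named genes, of which 52.6% were lower and 47.4% higher. After Benjamini-Hochberg adjustment of the limma p-values, 0 of 34738 probe sets stood at or under 0.05 (0% called), and 2015 had an unadjusted p under 0.05. The smallest limma adjusted p among the chemokines was 0.674. The study's own filter asks for an unadjusted p of at most 0.05, a log2 change of at least 0.4 in either direction and a mean of at least 4.0, and has no correction. It was passed by 3 chemokine genes, Ccl24, Ccl12 and Ccl5, all lower. This is 8.33% of the family, beside 0.487% of all named genes in either direction, 0.14% lower and 0.346% higher. An unadjusted p of at most 0.05 alone was reached by 6 chemokine genes, these 3 with Ccl9 and Ccl6 (lower) and Cxcl14 (higher), beside 5.66% of all named genes, 3.27% lower and 2.39% higher. Groups did not overlap for Ccl9 (lower) and Cxcl14 (higher), 2 of 36 genes, beside 3.64% of named genes, 1.95% lower and 1.7% higher. Without preirradiated tumors 1 and 3, which carried the muscle signal, the differences were -0.67 for Ccl24, -0.39 for Ccl12, -0.47 for Ccl5, -0.27 for Ccl9 and -0.34 for Ccl6, and 2 chemokine genes, Ccl24 and Ccl5, passed the filter.

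**Figure D1:**
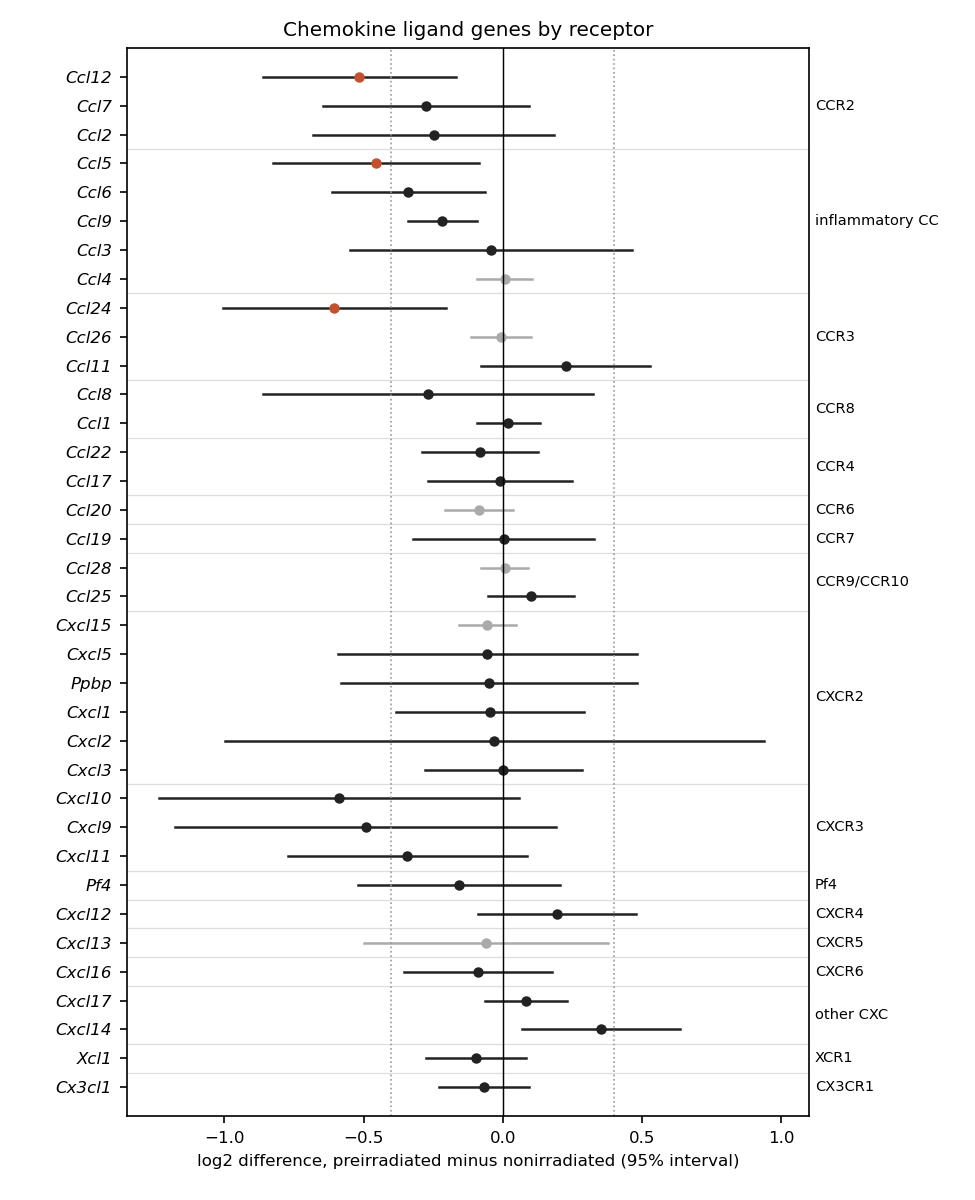
Log2 difference (preirradiated minus nonirradiated) of the 36 chemokine genes, grouped by receptor, with the 95% interval of the limma fit to 4 tumors a group. Orange points mark Ccl24, Ccl12 and Ccl5, which passed the study's filter, grey marks the 6 genes not above background, and dotted lines stand at a change of 0.4 in size.

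The CCR2 ligands draw monocytes from blood into tissue. Ccl12, monocyte chemoattractant protein 5 of the mouse, was 7.52, 7.63, 7.89 and 7.74 in nonirradiated tumors 1 to 4 and 7.28, 7.05, 6.83 and 7.56 in preirradiated tumors 1 to 4. Preirradiated tumors 1, 2 and 3 lay below every nonirradiated tumor, and tumor 4 lay within their range. The means were 7.18 ± 0.31 (SD, n = 4) against 7.70 ± 0.16 (n = 4), a signal 1.43-fold lower. The log2 difference of Ccl12 was -0.51 (SE 0.15, 95% interval -0.86 to -0.17, limma unadjusted p = 0.0089, adjusted p = 0.763). Without preirradiated tumor 3 it was -0.399, just short of the filter's limit. Ccl2, the principal monocyte chemoattractant, was 9.33, 9.06, 9.96 and 9.34 in nonirradiated and 9.24, 8.87, 9.22 and 9.38 in preirradiated tumors, and differed by -0.25 (95% interval -0.68 to 0.18). Ccl7, a ligand of CCR2 and other receptors, differed by -0.28 (95% interval -0.65 to 0.09). Ccl2 and Ccl7 did not pass, and single tumors carried much of their differences: Ccl2 was at -0.07 without nonirradiated tumor 3 and Ccl7 at -0.13 without preirradiated tumor 2. Nonirradiated tumor 3 held the highest value of Ccl2, Ccl7 and Ccl12 alike.

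The other inflammatory CC chemokines, Ccl3, Ccl4, Ccl5, Ccl6 and Ccl9, act on monocytes, macrophages, T cells and NK cells. Ccl9, a CCR1 ligand made by macrophages and other myeloid cells of the mouse, was 9.61, 9.77, 9.77 and 9.75 in nonirradiated and 9.55, 9.39, 9.57 and 9.53 in preirradiated tumors. All 4 preirradiated tumors lay below all nonirradiated tumors, by a small margin, since nonirradiated tumor 1 stood close to them. Its log2 difference was -0.22 (SE 0.054, 95% interval -0.34 to -0.09, limma unadjusted p = 0.00375, adjusted p = 0.674), the smallest p of the family but under the size that the filter asks for. Ccl6, another CCR1 ligand of mouse myeloid cells, was 10.52, 10.58, 10.88 and 10.80 in nonirradiated and 10.26, 10.12, 10.45 and 10.60 in preirradiated tumors. Preirradiated tumor 4 lay above 2 nonirradiated tumors, and the other 3 lay below all of them. Its difference was -0.34 (SE 0.12, limma unadjusted p = 0.0215, adjusted p = 0.812), and -0.42 without preirradiated tumor 4, where it passed the filter.

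Ccl5, made by T cells, NK cells and macrophages and known for attracting effector T cells, was 8.96, 8.63, 8.51 and 8.57 in nonirradiated and 7.94, 8.45, 8.52 and 7.95 in preirradiated tumors. Preirradiated tumors 1 and 4 were far below the nonirradiated range, tumor 2 was just under it and tumor 3 was inside it. The log2 difference was -0.45 (SE 0.16, limma unadjusted p = 0.0217, adjusted p = 0.812), a signal 1.37-fold lower, and it missed the filter when nonirradiated tumor 1 (-0.36), preirradiated tumor 1 (-0.36) or preirradiated tumor 4 (-0.37) was left out. Ccl3, a macrophage inflammatory protein, averaged 9.31 ± 0.45 without and 9.27 ± 0.24 with irradiation of the bed (n = 4 each), a difference of -0.04 (95% interval -0.55 to 0.47), again with nonirradiated tumor 3 highest, at 9.90. Of the 5 inflammatory CC genes, 1 passed the filter and 3 had an unadjusted p of at most 0.05, all lower. Over all named genes 0.487% passed the filter in either direction (0.14% lower), and 5.66% reached that p (3.27% lower).

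The CCR3 ligands are known for attracting eosinophils. Ccl24, eotaxin 2, made in mice largely by alternatively activated macrophages, was 7.48, 7.438, 8.03 and 8.10 in nonirradiated and 7.445, 7.09, 6.99 and 7.10 in preirradiated tumors. The nonirradiated tumors formed a low pair (1 and 2) and a high pair (3 and 4), and preirradiated tumor 1 lay between the values of the low pair. The means were 7.16 ± 0.20 against 7.76 ± 0.35 (n = 4 each), or 1.52-fold lower. The log2 difference of Ccl24 was -0.60 (SE 0.17, 95% interval -1.01 to -0.20, limma unadjusted p = 0.00818, adjusted p = 0.763), the largest in size of the 36. It passed the study's filter without any single tumor, from -0.71 to -0.49. Ccl11, eotaxin 1, made mainly by fibroblasts and other stromal cells, was 7.47, 7.68, 7.84 and 7.69 in nonirradiated and 8.19, 7.80, 8.01 and 7.58 in preirradiated tumors. It was higher on average, by 0.23 (95% interval -0.08 to 0.53), with overlapping groups, and did not pass. Of 5 measured eosinophil markers, Epx, Prg2, Il5ra and Ear6 were not above background in these tumors. The other, Siglecf, was barely above it, with means of 5.52 in nonirradiated and 5.46 in preirradiated tumors. List means of the 5 markers were 5.00 to 5.15 in nonirradiated and 5.03 to 5.08 in preirradiated tumors. The receptor Ccr3 was not above background, with a difference of 0.02.

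**Figure D2:**
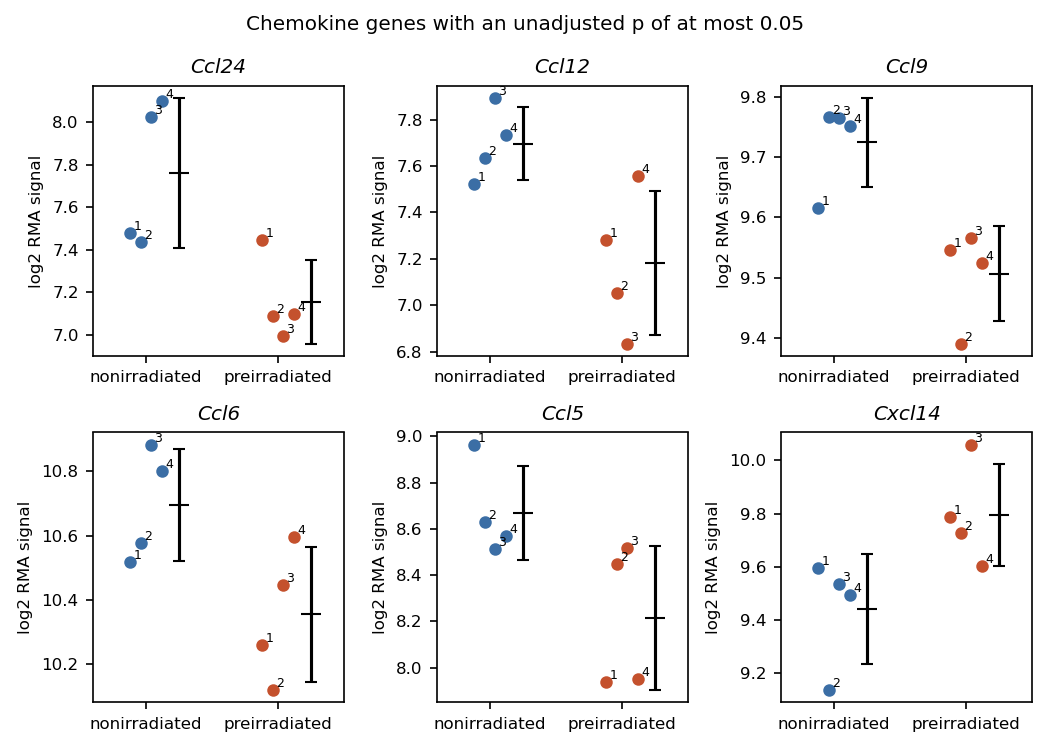
Log2 RMA signal of the 6 chemokine genes with an unadjusted limma p of at most 0.05, per tumor (points, numbered as in the labels), with the mean and SD of each group of 4 beside them. The axes do not start at 0. Groups do not overlap for Ccl9 and Cxcl14, and 1 preirradiated tumor falls within the nonirradiated range for Ccl24, Ccl12, Ccl6 and Ccl5.

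Macrophage markers were lower beside these genes. All 10 measured markers (Adgre1, Csf1r, Cd68, Mrc1, C1qa, C1qb, C1qc, Cd163, Mertk and Itgam) were lower on average and above background, with a median difference of -0.16, 4 had an unadjusted p of at most 0.05 and 0 passed the study's filter, beside 52.6% of all named genes lower, 5.66% at that p and 0.487% past the filter. Their list mean ran from 10.26 to 10.41 in nonirradiated and from 10.12 to 10.28 in preirradiated tumors. Pf4, platelet factor 4, which in mice is also made by macrophages, was 9.40, 9.40, 9.69 and 9.30 in nonirradiated and 9.57, 8.83, 9.34 and 9.43 in preirradiated tumors, a difference of -0.16 (95% interval -0.52 to 0.21), and of -0.0029 without preirradiated tumor 2. The groups overlapped, with preirradiated tumor 2 lowest, as in Ccl2, Ccl6, Ccl7 and Ccl9. The part of macrophage content in the values of these ligands was not tested. The 5 platelet markers that were measured had a median difference of 0.01.

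The CXCR3 ligands are induced by interferon-gamma and recruit activated T and NK cells. Cxcl9 was 11.69, 11.40, 11.21 and 10.85 in nonirradiated and 9.97, 11.32, 11.16 and 10.75 in preirradiated tumors. Cxcl10 was 10.65, 10.25, 10.36 and 9.53 in nonirradiated and 8.94, 9.91, 9.77 and 9.83 in preirradiated tumors. The RefSeq mouse reference lists Cxcl11 as a transcribed pseudogene, a status not checked here for the BALB/c strain of these tumors. Cxcl11 was 8.35, 8.14, 8.15 and 7.90 in nonirradiated and 7.24, 8.13, 7.98 and 7.82 in preirradiated tumors. Preirradiated tumor 1 was the lowest of all 8 in each of these CXCR3 ligands and nonirradiated tumor 1 the highest, and the other tumors of both groups overlapped. The log2 differences were -0.49 for Cxcl9 (95% interval -1.18 to 0.19), -0.59 for Cxcl10 (-1.23 to 0.06) and -0.34 for Cxcl11 (-0.77 to 0.09), and none passed. Without preirradiated tumor 1 they were -0.22, -0.36 and -0.16. Cxcl10 passed the filter without nonirradiated tumor 4 (-0.81) and Cxcl11 without preirradiated tumor 2 (-0.46).

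Markers of T and NK cells were lower with them. All 11 were lower on average, with a median difference of -0.22, beside 52.6% of all named genes lower. Of the 11, 1, Prf1, passed the study's filter, beside 0.487% of all named genes. The list mean of the 11 markers ran from 6.32 to 6.88 in nonirradiated and from 5.98 to 6.52 in preirradiated tumors. Preirradiated tumor 1 was lowest, and Cd3d, Ncr1 and Klrb1c were not above background. Irf1, an interferon-gamma-induced transcription factor, was also lowest in preirradiated tumor 1, at 9.95, against 10.29 to 10.68 in the others. Whether these lower markers have a part in the CXCR3 ligands and Ccl5 was not tested. The interferon-gamma transcript itself, Ifng, differed by -0.10 (SE 0.11). The receptor Cxcr3 differed by -0.02 (SE 0.096).

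The CXCR2 ligands are the main neutrophil chemoattractants of the mouse, and none of them passed. Cxcl2 was 6.08, 6.40, 7.88 and 6.91 in nonirradiated and 7.04, 5.95, 7.34 and 6.83 in preirradiated tumors. The spans of the groups overlapped, and its difference was -0.03 (95% interval -0.998 to 0.94). This could not be told from 0, and changes up to those bounds were not excluded. Cxcl1, at 8.10 ± 0.15 against 8.14 ± 0.30, differed by -0.05 (95% interval -0.38 to 0.29). Cxcl3 differed by 0.0023 (95% interval -0.28 to 0.28), Cxcl5, the epithelial member, by -0.06 (-0.59 to 0.48), and Ppbp, the platelet member, by -0.05 (-0.58 to 0.48). Cxcl15, a lung-expressed member, had the smallest p of this receptor group but was not above background, at 4.52, 4.65, 4.57 and 4.49 in nonirradiated and 4.45, 4.53, 4.51 and 4.52 in preirradiated tumors. Nonirradiated tumor 3 was the highest of all 8 tumors in Cxcl1, Cxcl2, Cxcl3, Cxcl5 and Ppbp. The receptor Cxcr2 was highest there too, at 7.89 against 6.29 to 7.34 in the other 7 tumors. So was the list mean of 9 neutrophil markers, at 7.51. It ran from 6.63 to 7.51 in nonirradiated and from 6.53 to 7.19 in preirradiated tumors. Of the 9 markers 7 were lower on average, beside 52.6% of all named genes. Of these, 1, Ngp, passed the study's filter (-0.54, limma unadjusted p = 0.0354), beside 0.487% of all named genes. Ly6g was not above background. Without nonirradiated tumor 3 the difference of Cxcl2 was 0.32 and that of Ppbp 0.18. The part of neutrophil content in these values was not tested.

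Among the remaining CXC chemokines, Cxcl14, made by epithelium and fibroblasts, was 9.60, 9.14, 9.53 and 9.50 in nonirradiated and 9.79, 9.73, 10.06 and 9.60 in preirradiated tumors. Every preirradiated tumor lay above every nonirradiated one, although preirradiated tumor 4 and nonirradiated tumor 1 were nearly level. The means were 9.79 ± 0.19 and 9.44 ± 0.21 (n = 4 each), or 1.28-fold higher. The log2 difference of Cxcl14 was 0.35 (SE 0.12, 95% interval 0.07 to 0.64, limma unadjusted p = 0.0207, adjusted p = 0.812), under the filter's size, which it passed without nonirradiated tumor 1 (0.41) or preirradiated tumor 4 (0.42). Cxcl12, the stromal ligand of CXCR4 that retains leukocytes in tissue, was 5.82, 6.09, 6.17 and 6.05 in nonirradiated and 6.52, 5.94, 6.26 and 6.19 in preirradiated tumors. Preirradiated tumors 1, 3 and 4 lay above all nonirradiated tumors and tumor 2 within their range, a difference of 0.19 (95% interval -0.09 to 0.48) that did not pass. Fibroblast, adipocyte and most epithelial markers were higher beside Cxcl14, Cxcl12 and Ccl11. Over all named genes 47.4% were higher, 0.487% passed the study's filter in either direction and 0.346% passed it as higher. All 6 epithelial markers but Krt5 (-0.11) were higher on average, and Krt14 passed the filter (0.87, limma unadjusted p = 0.0155). Of 9 fibroblast markers 8 were higher on average and 4 passed the study's filter, all above background, and the list mean ran from 8.84 to 9.10 in nonirradiated and from 9.17 to 9.51 in preirradiated tumors. All 8 adipocyte markers were higher on average, 2 of them (Plin4 and Car3) passed the filter, and Lep was not above background. Their list mean was 7.94 in preirradiated tumor 1, 6.89 in preirradiated tumor 3 and 6.09 to 6.60 in the other 6 tumors. In preirradiated tumor 3 Car3 (11.21) and Plin4 (6.85) were high, as in preirradiated tumor 1 (11.56 and 6.85). The 2 adipocyte markers past the filter were thus high in the tumors with skeletal muscle signal. Adipoq, at 5.16 in preirradiated tumor 3, was lowest there, and Cidec (6.37) and Fabp4 (8.25) lay within the range of the other 6 tumors. Preirradiated tumor 1 was the highest in the fibroblast and adipocyte lists, in Cxcl12 and in Ccl11, and preirradiated tumor 3 in Cxcl14. These are also the tumors with skeletal muscle signal, and without both the difference of Cxcl14 was 0.23, that of Cxcl12 0.03 and that of Ccl11 0.02. Without preirradiated tumor 1 alone, Cxcl12 was at 0.10 and Ccl11 at 0.13. Preirradiated tumor 3 also had the highest mean of skin epidermis markers (6.93). Nonirradiated tumor 4, next at 6.54, had Cxcl14 at 9.50. The part of fibroblast, adipocyte, epithelial, skin and muscle content was not tested.

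The membrane-anchored chemokines Cxcl16 and Cx3cl1 and the remaining Cxcl17 and Xcl1 did not pass. Cxcl16, which binds CXCR6 on T cells and serves macrophages as a scavenger receptor, was 10.02, 9.74, 9.65 and 9.95 in nonirradiated and 9.78, 9.997, 9.70 and 9.52 in preirradiated tumors (-0.09, 95% interval -0.36 to 0.18). Cx3cl1, fractalkine, the ligand of CX3CR1 on monocytes and macrophages, was 10.05, 9.87, 10.04 and 10.11 in nonirradiated and 9.85, 9.89, 9.95 and 10.10 in preirradiated tumors (-0.07, 95% interval -0.23 to 0.09). In both genes the groups overlapped over most of their range. Cxcl17, a mucosal CXC chemokine, differed by 0.08 (95% interval -0.06 to 0.23). Xcl1, lymphotactin, which draws XCR1-bearing dendritic cells and is made by NK and CD8 T cells, was 5.87, 5.89, 5.64 and 5.57 in nonirradiated and 5.59, 5.73, 5.60 and 5.66 in preirradiated tumors, a difference of -0.10 (95% interval -0.28 to 0.08). Nonirradiated tumors 1 and 2 were highest in Xcl1, and the other 6 tumors were close together.

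The CCR8 ligand Ccl8, which in mice attracts type 2 T cells, was 9.27, 9.28, 8.32 and 8.57 in nonirradiated and 8.31, 8.74, 9.01 and 8.30 in preirradiated tumors. It split the tumors within each group rather than between groups, and its difference was -0.27 (95% interval -0.86 to 0.33). Ccl1, the other CCR8 ligand, differed by 0.02 (95% interval -0.09 to 0.13). Ccl17 and Ccl22, dendritic cell products that draw regulatory and type 2 T cells through CCR4, differed by -0.01 (95% interval -0.27 to 0.25) and -0.08 (-0.29 to 0.13). Ccl22 was 5.59, 5.69, 5.58 and 5.95 in nonirradiated and 5.75, 5.60, 5.62 and 5.51 in preirradiated tumors, with nonirradiated tumor 4 highest. Ccl25, the thymic and gut ligand of CCR9, was 6.19, 6.18, 6.25 and 6.18 in nonirradiated and 6.19, 6.49, 6.21 and 6.32 in preirradiated tumors (0.10, 95% interval -0.05 to 0.26), with preirradiated tumors 2 and 4 above the others. Ccl20, the CCR6 ligand, was not above background, at 5.42, 5.37, 5.56 and 5.38 in nonirradiated and 5.33, 5.30, 5.42 and 5.35 in preirradiated tumors. Ccl4, a macrophage inflammatory protein, Ccl26, an eotaxin, and Ccl28, a mucosal CCR10 ligand, were not above background either, with mean signals of 4.97 to 5.36 and the bounds of their intervals between -0.11 and 0.11. None of these genes passed, and for Ccl8 the interval includes changes larger than the filter's limit.

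The CCR7 and CXCR5 ligands organise lymphoid tissue. Cxcl13, the B cell chemokine, was 4.87, 4.97, 4.95 and 5.79 in nonirradiated and 5.23, 5.00, 5.04 and 5.04 in preirradiated tumors. Its mean was under background, and nonirradiated tumor 4 alone lay over it. A probe set that lists Ccl21a, Ccl21b, Ccl21c and Ccl21d with predicted genes, and hence names no single gene, was 7.51 in the same tumor and 5.45 to 5.78 in the others. Ccl19 had 4 probe sets, and they disagreed. The one with the highest mean, used here, was 9.01, 9.18, 8.63 and 9.05 in nonirradiated and 9.12, 8.95, 9.14 and 8.66 in preirradiated tumors, a difference of 0.0033 (95% interval -0.32 to 0.33). In it nonirradiated tumor 4 was not set apart. Another, probe set 10512372, was 6.33 in nonirradiated tumor 4 and 5.61 to 5.79 elsewhere. The list mean of 5 measured B cell markers was 6.20 in that tumor and 5.57 to 5.63 in the other nonirradiated tumors, against 5.48 to 5.60 in preirradiated tumors. All 5 B cell markers were lower on average in preirradiated tumors, beside 52.6% of all named genes. Of them 1, Bank1, passed the study's filter (-0.41, limma unadjusted p = 0.0144), beside 0.487% of all named genes. Ms4a1 and Cd79a were not above background. The mean of 4 skin epidermis markers stood apart in the same tumor, at 6.54 against 5.61 to 5.78 in the other nonirradiated tumors. The part of B cells or skin in these values was not tested. Ccl27a and Ccl27b, skin ligands of CCR10, share 2 probe sets with other symbols, whose differences were 0.0057 and 0.025. One of them, probe set 10512315, was 6.44 in nonirradiated tumor 4 and 6.55 in preirradiated tumor 3, against 5.93 to 6.09 in the other 6 tumors. Skin epidermis markers were likewise highest in both tumors, with means of 6.54 and 6.93, against 5.61 to 5.78 elsewhere, and the part of skin was not tested.

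**Figure D3:**
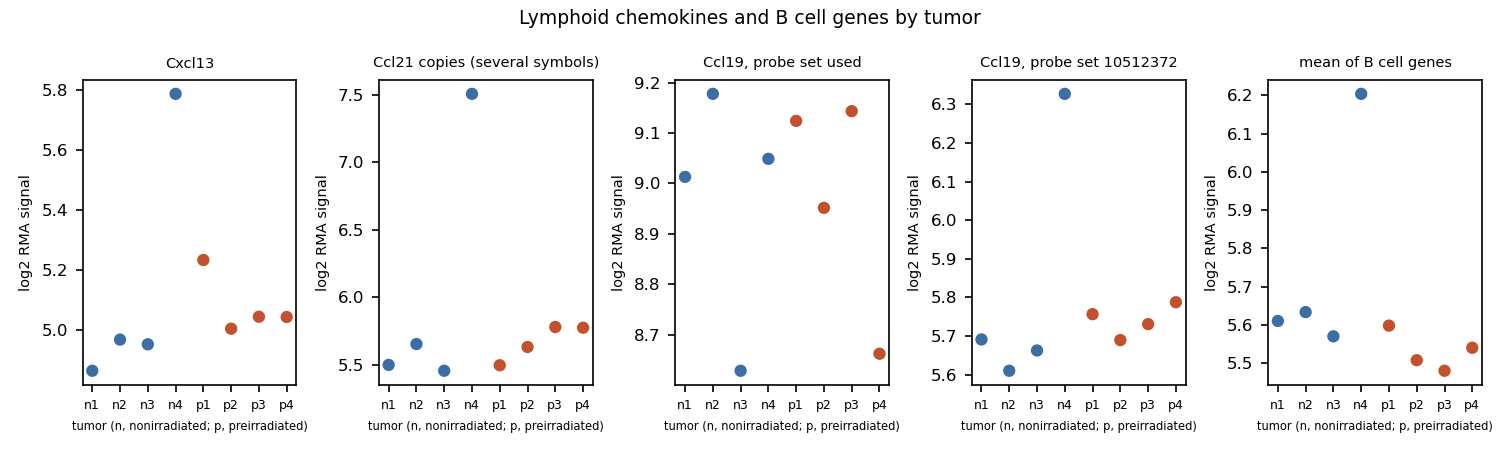
Log2 RMA signal per tumor (blue, nonirradiated; orange, preirradiated) of Cxcl13, the probe set shared by Ccl21 copies, 2 of the 4 Ccl19 probe sets and the mean of 5 B cell markers. The axes do not start at 0. Nonirradiated tumor 4 is the highest in all panels but that of the Ccl19 probe set used here, where it stands at 9.05 among values of 8.63 to 9.18.

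Seen by tumor, the highest value of the 36 genes lay more often in nonirradiated than in preirradiated tumors. Nonirradiated tumors 1 to 4 were highest in 5, 7, 13 and 5 genes, and preirradiated tumors 1 to 4 in 4, 1, 1 and 0. The lowest value lay in 8, 5, 1 and 2 genes in nonirradiated tumors 1 to 4, and in 6, 8, 2 and 4 in preirradiated ones. The 13 genes of nonirradiated tumor 3, 11 of them above background, included Ccl2, Ccl3, Ccl6, Ccl7, Ccl12, Pf4 and the CXCR2 ligands named above. Preirradiated tumor 4 was the highest in 0 genes, and preirradiated tumors 2 and 3 in 1 each, Ccl25 and Cxcl14. Preirradiated tumor 2 was the lowest in 8 genes (7 above background), including Ccl2, Ccl6, Ccl7, Ccl9, Cxcl2 and Pf4. Preirradiated tumor 1 was the lowest in 6 (5 above background), including Ccl5 and the 3 CXCR3 ligands. At the same time it was the highest in Ccl11, Ccl17, Cxcl12 and Cxcl17.

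**Figure D4:**
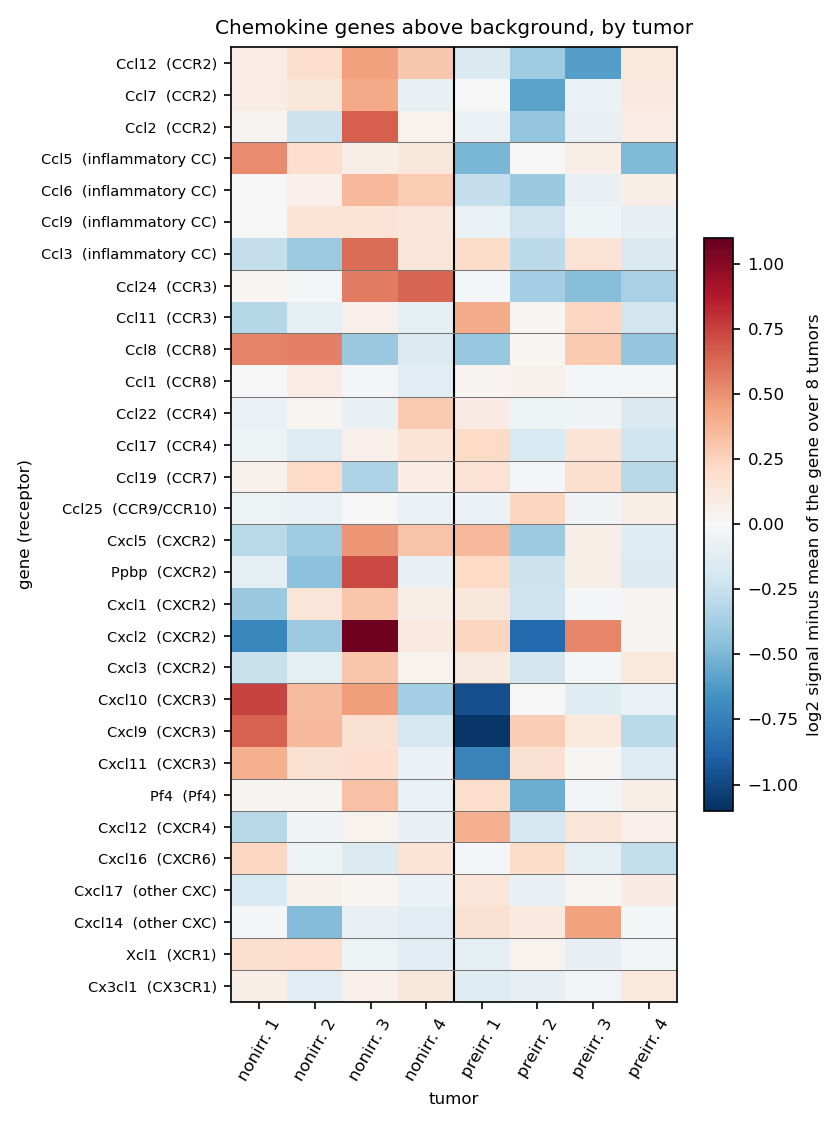
Log2 signal of the 30 chemokine genes above background in each of 8 tumors, as the deviation from each gene's own mean, ordered by receptor. Preirradiated tumor 1 is darkest blue in Cxcl9, Cxcl10 and Cxcl11, and nonirradiated tumor 3 is red in Ccl2, Ccl3, Ccl12 and the CXCR2 ligands.

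Covariation was measured for 12 pairs that share a receptor or an inducer, over 8 tumors, with exact two-sided permutation tests and Benjamini-Hochberg adjustment over the 12 pairs. By Pearson's r, 6 pairs passed an adjusted p of 0.05, by Spearman's rho 1 did, and on deviations from the group means 0 did (smallest adjusted permutation p = 0.0625, with 5 pairs under 0.05 unadjusted). Cxcl10 and Cxcl11 were the closest pair, with r = 0.93 (exact permutation p = 0.00074, adjusted 0.0089) and rho = 0.93 (exact permutation p = 0.0022, adjusted 0.027). Cxcl9 and Cxcl10 had r = 0.92 (exact permutation p = 0.0016, adjusted 0.0095) and rho = 0.86 (exact permutation p = 0.011, adjusted 0.064). Without nonirradiated tumor 1 and preirradiated tumor 1, the tumors farthest from the median of the first gene, r was 0.76 and 0.65 for these pairs. Ccl5 and Cxcl9 had r = 0.86 (exact permutation p = 0.0039, adjusted 0.012) and rho = 0.76 (exact permutation p = 0.037, adjusted 0.11), and r was 0.69 without preirradiated tumors 1 and 4.

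Cxcl2 and Cxcl3 had r = 0.90 (exact permutation p = 0.0032, adjusted 0.012) and rho = 0.76 (exact permutation p = 0.037, adjusted 0.11), with r = 0.76 without nonirradiated tumor 3 and preirradiated tumor 2. Cxcl1 and Cxcl2 had r = 0.78 (exact permutation p = 0.024, adjusted 0.048) and rho = 0.60 (exact permutation p = 0.13, adjusted 0.20), with r = 0.46 without nonirradiated tumor 1 and preirradiated tumor 2. Ccl6 and Ccl9, neighbouring genes, had r = 0.85 (exact permutation p = 0.0088, adjusted 0.021) and rho = 0.64 (exact permutation p = 0.096, adjusted 0.19), with r = 0.64 without nonirradiated tumor 3 and preirradiated tumor 2. The relation of Ccl2 and Ccl7 rested on the same 2 tumors: r was 0.82 (exact permutation p = 0.036, adjusted 0.062), rho 0.50 (exact permutation p = 0.22, adjusted 0.26), and r was -0.18 without them. The other 5 pairs did not pass, and Ccl11 and Ccl24, both CCR3 ligands, had r = -0.12 (exact permutation p = 0.79, adjusted 0.79) and rho = -0.17 (exact permutation p = 0.70, adjusted 0.70).

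**Figure D5:**
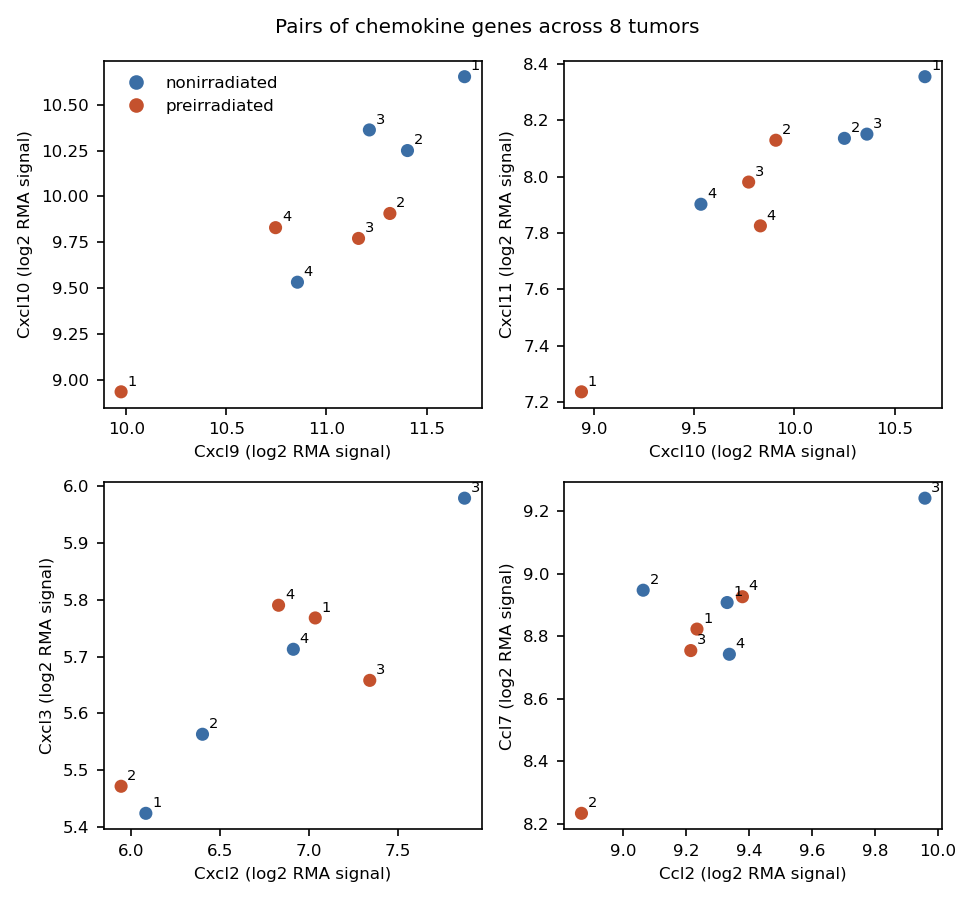
Log2 RMA signal of 4 pairs of chemokine genes across 8 tumors (blue, nonirradiated; orange, preirradiated; numbers as in the labels). The axes do not start at 0. Preirradiated tumor 1 is lowest in both CXCR3 ligand pairs, and nonirradiated tumor 3 is highest in Cxcl2, Cxcl3, Ccl2 and Ccl7.

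Most of the genes lie in clusters, by the RefSeq table (GRCm38.p6, used for chromosome and neighbourhood only). On chromosome 11 there were 12, in 2 runs of adjacent coding genes besides Cxcl16: Ccl2, Ccl7, Ccl11, Ccl12, Ccl8 and Ccl1, and then Ccl5, Ccl9, Ccl6, Ccl3 and Ccl4. Differences within a run went both ways, with Ccl11 at 0.23 between Ccl7 at -0.28 and Ccl12 at -0.51. In the second run Ccl5, Ccl9 and Ccl6 were at -0.45, -0.22 and -0.34, and the adjacent Ccl3 was at -0.04. On chromosome 5 there were 13. Cxcl5, Ppbp, Pf4, Cxcl3, Cxcl15, Cxcl1 and Cxcl2 formed a run of adjacent coding genes, at differences of -0.16 to 0.0023. Apart from this run, Cxcl9 and Cxcl10 were at -0.49 and -0.59. Ccl24, at -0.60, lay next to Ccl26, which was not above background. The differences between neighbours were not tested.

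Of 17 measured chemokine receptors 14 were lower and 3 higher on average, with a median of -0.05. Of these 17, 7 were not above background, among them the 3 higher ones (Ccr3, Ccr6 and Ccr8), and the 10 above background were all lower. Of the 17, 0 passed the study's filter or had an unadjusted p of at most 0.05, beside 0.487% and 5.66% of all named genes. The smallest p were those of Ccr9 (-0.09, limma unadjusted p = 0.168), which was not above background, and Ccr1, the receptor of Ccl6 and Ccl9 (-0.12, limma unadjusted p = 0.196). Of the 5 atypical receptors, which bind and clear chemokines, 0 passed, and Ackr1, not above background (0.08, limma unadjusted p = 0.130), and Ccrl2 (-0.16, limma unadjusted p = 0.265) came nearest. Of 15 measured inducers and processing enzymes 0 passed the filter and 1 had an unadjusted p of at most 0.05. This was Il4, a type 2 cytokine that was not above background, at 0.09 (limma unadjusted p = 0.041). Next was Mmp9, a gelatinase that can trim chemokines, at 11.18 ± 0.27 against 10.82 ± 0.24, a difference of 0.36 (limma unadjusted p = 0.0521).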

How the data were processed

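Total RNA of 8 whole tumors was amplified, labelled and hybridised to 1 array each, per the labels' protocols. The authors deposited log2 signals, 1 per probe set, which the design text of the series describes as made by RMA (robust multi-array average). Affy and R 2.15.3 are named in the submitters' processing notes. RMA corrects background and makes array distributions alike, so a change in total RNA cannot be seen and changes near background are understated. The chip description file and genome build are not given in the sources used here. Precision is limited by 4 arrays a group.

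Of 34760 probe sets, 34738 had a mean of at least 4.0 and were tested. By the platform annotation 21640 listed 1 symbol, 1321 several and 11799 none. Preirradiated minus nonirradiated was fitted with limma 3.58.1 in R 4.3.3 (lmFit, eBayes, two-sided, Benjamini-Hochberg over all tested probe sets), and tested on simulated data. Same-numbered tumors were not paired by the labels, and their deviations had no positive correlation (-0.29 to -0.075). Alternatives covered the signal limit, variance trend, normalization, array weights, replicate block, probe set choice, thresholds and leaving out tumors. The chemokine genes, receptor groups, marker lists and pairs were chosen with earlier results of these data known. The naming rule took every chemokine gene, with full values for those past the filter, not overlapping or with the smallest p of their receptor group, and from the lists of receptors and inducers the 2 with the smallest p. List members without a single-symbol probe set were not analysed here.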

Additional observations from a re-analysis of the deposited data

Results flagged for a closer look

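Of 72 groups of 4 tumors (36 chemokine genes in each of 2 groups), 3 held a tumor far from the others by Dixon's criterion at 95%, where chance flags about 1 group in 20, or 5%. Cxcl10 was 8.94 in preirradiated tumor 1, against 9.77 to 9.91 in the other preirradiated tumors. Cxcl13 was 5.79 in nonirradiated tumor 4, against 4.87 to 4.97 in the other nonirradiated tumors. Ccl9 was 9.61 in nonirradiated tumor 1, against 9.75 to 9.77 in the other nonirradiated tumors, and without it the log2 difference of Ccl9 was -0.25.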

How the results depend on the processing

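No alternative gave a probe set past the adjusted limma threshold (0 in all), with a smallest adjusted p from 0.0589 (without nonirradiated tumor 2) to 0.9999 (without preirradiated tumors 1 and 3). The number of chemokine genes past the study's filter was 3, between 2 and 4 when 1 tumor was left out, 2 without preirradiated tumors 1 and 3, and 6 with no limit on the size of the change. With the replicate block it was 2: Ccl5 kept its difference of -0.45 with a limma unadjusted p of 0.0506. Ccl5 also missed the filter with array weights (-0.37) and at an unadjusted p of at most 0.01, and Ccl12 missed it without preirradiated tumors 1 and 3 (-0.39). Of 12 pairs, 6 passed by Pearson's r, 1 by Spearman's rho, 0 on deviations from the group means and 5 with arrays centred on their medians. Signs turned for genes that had not passed the filter. With further quantile normalization these were Ccl4 (-0.011), Ccl1 (-0.0096), Ccl28 (-0.0039) and Cxcl3 (-0.022). With centred arrays they were Ccl4 (-0.028), Ccl19 (-0.031), Ccl1 (-0.014), Ccl28 (-0.027) and Cxcl3 (-0.032). With array weights they were Ccl4 (-0.019), Ccl17 (0.024) and Cxcl3 (-0.063). Without preirradiated tumors 1 and 3 they were Ccl26 (0.011), Ccl19 (-0.16) and Cxcl3 (-0.039), and Ccl19 was -0.065 as the mean of its probe sets. When 1 tumor was left out, the range crossed 0 for Ccl3 (-0.18 to 0.16), Ccl4 (-0.019 to 0.032), Ccl26 (-0.030 to 0.020), Ccl22 (-0.13 to 0.0015), Ccl17 (-0.085 to 0.062), Ccl19 (-0.11 to 0.11), Ccl1 (-0.018 to 0.052), Ccl28 (-0.0059 to 0.026), Cxcl1 (-0.19 to 0.047), Cxcl5 (-0.20 to 0.098), Ppbp (-0.21 to 0.18), Cxcl2 (-0.28 to 0.32), Cxcl3 (-0.080 to 0.11) and Cxcl13 (-0.15 to 0.15). The causes were not tested. With 4 arrays a group, a difference whose printed interval includes 0 could not be told from 0. The intervals have no correction for multiple testing.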
